A study of Mus musculus with 4 samples.

Results

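Ccl3, Ccl4, Ccl6, Ccl9, Ltb, Il12a and Wfdc17 are 7 of the 32285 genes in a single-cell RNA count table of mouse bone marrow hematopoietic stem and progenitor cells (HSPCs). They were chosen by name, with their levels in these cells already known, as signalling genes that were read in progenitors and not only in mature immune cells. Their levels are therefore given as a description, without a test. All cells were donor cells (CD45.2+) of the C57BL/6 strain, sorted from recipients 20 weeks after competitive transplantation. In 2 samples the donors were heterozygous Srcap mutants and in the other 2 samples they were WT, and 20000 cells were sorted per sample. The nature of the mutant allele and any pooling of donors are not given in the sources used here. The table separates 4 libraries by a barcode suffix, called library 1 to library 4 here, and nothing in the sources used here ties a suffix to a genotype. No comparison of mutant with WT was made for this reason, and every value is given within a library or as a median and range over the 4 libraries, which are not replicates of 1 group.

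Chemokines are small secreted proteins that guide the movement of cells through receptors on their surface. CC chemokines such as Ccl3, Ccl4, Ccl6 and Ccl9 draw mainly monocytes, T cells and granulocytes, and Ccl3 is also known as a brake on the proliferation of early hematopoietic progenitors. Lymphotoxin beta and the alpha subunit of IL-12 are cytokines better known from lymphocytes and from dendritic cells and macrophages, and each works only together with a partner protein.

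After filters on gene number and mitochondrial content 41122 of 44151 barcodes remained. The libraries held between 9511 and 13301 barcodes and between 112027160 and 144385614 unique molecular identifiers (UMIs, tags that count each captured RNA molecule once), with a median of 9824 to 10226.5 UMIs per kept cell. Cells were gated on marker genes, none of which is one of the 7 genes. A total of 30388 cells (73.9%) carried no lineage gate and were divided by Flt3, a receptor of multipotent and lymphoid-primed progenitors, and Procr, a surface protein of stem cells. Cells with at least 1 UMI of Flt3 and none of Procr (8728 cells) are called Flt3-positive, cells with Procr and without Flt3 (6728 cells) are called Procr-positive, and 3703 cells carried both. The stem cell genes Hlf and Mecom had medians of 328 and 60.6 CPM (UMIs of a gene per 1000000 UMIs of the same cells) in Flt3-positive cells, against 508 and 140 CPM in Procr-positive cells. The lymphoid-priming genes Dntt and Satb1 stood at 375 and 129 CPM in Flt3-positive cells, against 10.4 and 16.8 CPM in Procr-positive cells. Another 14 gates are named after their markers, of which 9 had all of their markers highest in their own gate. That count is in large part set by the gating, since cells entered a gate by these same markers. None of the 5 early granulocyte markers was highest in its own gate, against 2 of 6 for common lymphoid progenitors and 3 of 7 for monocyte progenitors. The plasmacytoid dendritic cell gate shared Cox6a2, Ly6d, Cmah, Tmem108 and Dntt with the common lymphoid progenitor gate among the 10 leading genes of each. The mature B gate was shallow, with a median of 2458 UMIs per cell. Of all barcodes, 420 (0.951%) were found in more than 1 library.

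5 of the 7 genes lie beside each other on chromosome 11, a property that was not used to choose them. In the GENCODE M21 annotation of GRCm38 they run from Ccl9 (chr11:83572919-83578636, minus strand) through Ccl6 (chr11:83587882-83593087, minus strand), Ccl3 (chr11:83647844-83649355, minus strand) and Ccl4 (chr11:83662584-83664683, plus strand) to Wfdc17 (chr11:83703991-83706268, plus strand). This span of 133.4 kb holds 6 protein-coding entries, which are these 5 genes and Rpl9-ps1. Wfdc18, another gene for a secreted protein with a WAP domain, starts 2746 bases past the end of Wfdc17. Ltb lies at chr17:35194439-35196320 and Il12a at chr3:68690644-68698547, both on the plus strand. Only the stretch at the end of each transcript was searched for runs of 31 bases shared with another gene. In that stretch Ccl3, Ccl4, Ltb, Il12a and Wfdc17 shared none, and Ccl6 and Ccl9 shared 1.33% and 0.48% of such runs. Ccl6 overlaps E230016K23Rik on the opposite strand, which has a row of its own in the table.

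Promoter windows (250 bases before to 50 bases after the annotated start, RefSeq on GRCm38.p6) were at hand for 6 of the 7 genes. The windows of the 4 genes with a motif match are printed below, so that the matches can be seen in their sequence, in the 5′ to 3′ direction of the gene. They are Ccl3 at chr11:83649329-83649628 (minus strand), Wfdc17 at chr11:83703806-83704105 (plus strand), Ccl9 at chr11:83578587-83578886 (minus strand) and Ltb at chr17:35194257-35194556 (plus strand). Capitals mark matches, on either strand, to a TATA box (TATAAA), a PU.1 core (GAGGAA), an AP-1 site (TGANTCA), a C/EBP site (TTNNGNAA) and an NF-kB site, searched by its usual consensus.
Ccl3: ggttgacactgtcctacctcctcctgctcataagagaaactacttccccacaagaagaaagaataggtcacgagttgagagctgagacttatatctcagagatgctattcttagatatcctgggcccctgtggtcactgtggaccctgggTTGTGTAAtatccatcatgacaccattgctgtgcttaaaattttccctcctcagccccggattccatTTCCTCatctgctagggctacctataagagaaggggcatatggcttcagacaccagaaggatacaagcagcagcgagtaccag
Wfdc17: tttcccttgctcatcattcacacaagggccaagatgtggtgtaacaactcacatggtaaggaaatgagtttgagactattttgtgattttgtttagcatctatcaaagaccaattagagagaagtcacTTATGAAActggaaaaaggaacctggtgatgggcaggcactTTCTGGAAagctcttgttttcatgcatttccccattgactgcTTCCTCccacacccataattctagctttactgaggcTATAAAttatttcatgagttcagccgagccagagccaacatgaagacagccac
Ccl9: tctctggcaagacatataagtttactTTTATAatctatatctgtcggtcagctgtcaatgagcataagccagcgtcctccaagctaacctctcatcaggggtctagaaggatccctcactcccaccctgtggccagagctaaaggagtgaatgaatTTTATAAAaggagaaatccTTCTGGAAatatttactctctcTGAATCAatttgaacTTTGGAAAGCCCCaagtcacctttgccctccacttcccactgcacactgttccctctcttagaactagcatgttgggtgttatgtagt
Ltb: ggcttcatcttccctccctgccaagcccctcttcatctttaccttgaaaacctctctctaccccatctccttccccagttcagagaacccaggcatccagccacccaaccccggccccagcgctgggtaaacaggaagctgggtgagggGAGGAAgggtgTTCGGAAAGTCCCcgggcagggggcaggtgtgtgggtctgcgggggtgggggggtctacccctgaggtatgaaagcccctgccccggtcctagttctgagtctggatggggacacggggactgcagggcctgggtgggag
The Ccl3 and Wfdc17 windows each held a PU.1 core on the opposite strand close to the start, at -33 to -28 and at -39 to -34 (position 0 is the first annotated base). In Ccl9 and in Ltb a C/EBP match overlapped the NF-kB match, which gives a single run of capitals. Of 32851 mouse promoter windows of the same length, 28.3% held the PU.1 core, 40.7% the C/EBP site, 13.6% the TATA box, 8.46% the NF-kB site and 7.81% the AP-1 site. The windows of Ccl6 and the 2 of Il12a held none of the 5. Aligned bases of the Ccl6 and Ccl9 windows were identical at 67.6%, the highest value of any pair, and those of Ccl3 and Wfdc17 at 63.3%. Pairs on different chromosomes reached like values, with 64.3% for Ccl3 and the first Il12a window and 63.9% for Ccl9 and Ltb. The lowest pair had 55.0%, so that 63.3% does not set Ccl3 and Wfdc17 apart. These matches describe letters in a window and say nothing of the binding of a factor.

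Ccl3, the chemokine also known for holding back progenitor proliferation, was read mostly outside the lineage gates. It had 83.4% of its 3794 UMIs in cells without a lineage gate, which were 73.9% of all kept cells. In Flt3-positive cells it had 15.9, 14.6, 20.3 and 21.0 CPM in libraries 1 to 4, against 5.14, 4.37, 7.20 and 5.33 CPM in Procr-positive cells. Every Flt3-positive value lay above every Procr-positive value, and the log2 ratio lay between 1.38 and 1.80. The highest median over the 18 gates was in plasmacytoid dendritic cells, with 36.9, 14.2, 39.0 and 28.9 CPM in libraries 1 to 4. These rest on 28 to 34 cells per library, and in library 2 the exact 95% Poisson interval, which covers counting error only, ran from 4.60 to 33.0 CPM. T, NK or innate lymphoid cells, a usual source of Ccl3, had between 1.43 and 73.2 CPM. In library 4 a single cell of that gate gave 39 of its 44 Ccl3 UMIs. Erythroid cells held 4 Ccl3 UMIs in all and mature B cells none.

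Ccl4, a close relative of Ccl3, followed another order. Its median was 30.4 CPM (range 27.8 to 36.0) in Flt3-positive cells, against 44.6 CPM (range 33.8 to 48.0) in Procr-positive cells, the highest median of the 18 gates. The library ranges overlapped, and the log2 ratio lay between -0.69 and -0.26. Cells with both Flt3 and Procr had 41.5 CPM, whereas erythroid cells, which are not known to make it, had 4.11 CPM. In plasmacytoid dendritic cells library 3 stood apart at 114 CPM, while the other 3 libraries had 22.2 to 31.6 CPM. In the T, NK or innate lymphoid gate the same single cell pattern was seen as for Ccl3, since 1 cell of library 4 held 70 of 86 Ccl4 UMIs.

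Ccl9, a mouse chemokine of myeloid cells, was highest in 3 myeloid gates that did not separate from each other. Early granulocytes had 116, 132, 158 and 136 CPM in libraries 1 to 4, monocyte progenitors had 106 to 141 CPM and basophils or mast cells 104 to 189 CPM. Among cells without a lineage gate, Flt3-positive cells had 46.5, 45.7, 72.5 and 54.0 CPM, against 12.4, 12.2, 19.9 and 10.98 CPM in Procr-positive cells. The groups did not overlap, and the log2 ratio had a median of 1.82 (range 1.81 to 2.20). Library 3 had the highest Ccl9 of the 4 libraries in both sets of cells and in early granulocytes. Erythroid cells had 9.14 CPM (range 4.86 to 10.1), so that the Procr-positive median of 12.3 CPM was 1.35 times the erythroid level. These ranges did not overlap. Megakaryocytes had less than either, with 3.83 CPM (range 3.37 to 4.77).

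Ccl6, the neighbour of Ccl9 on the chromosome, was a gene of mature myeloid cells here. Macrophages had 93.8, 83.5, 44.2 and 53.7 CPM in libraries 1 to 4, conventional dendritic cells 30.5 to 48.4 CPM and monocyte progenitors 10.95 to 15.4 CPM. In Flt3-positive cells the median was 0.931 CPM, against 0.732 CPM in Procr-positive cells. It was read in 1.99% of all kept cells. Only 24.8% of its 1074 UMIs came from cells without a lineage gate, which were 73.9% of all kept cells. Of the 7 genes it alone stayed under the 5 CPM that the comparison across all genes asked for.

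**Figure D1:**
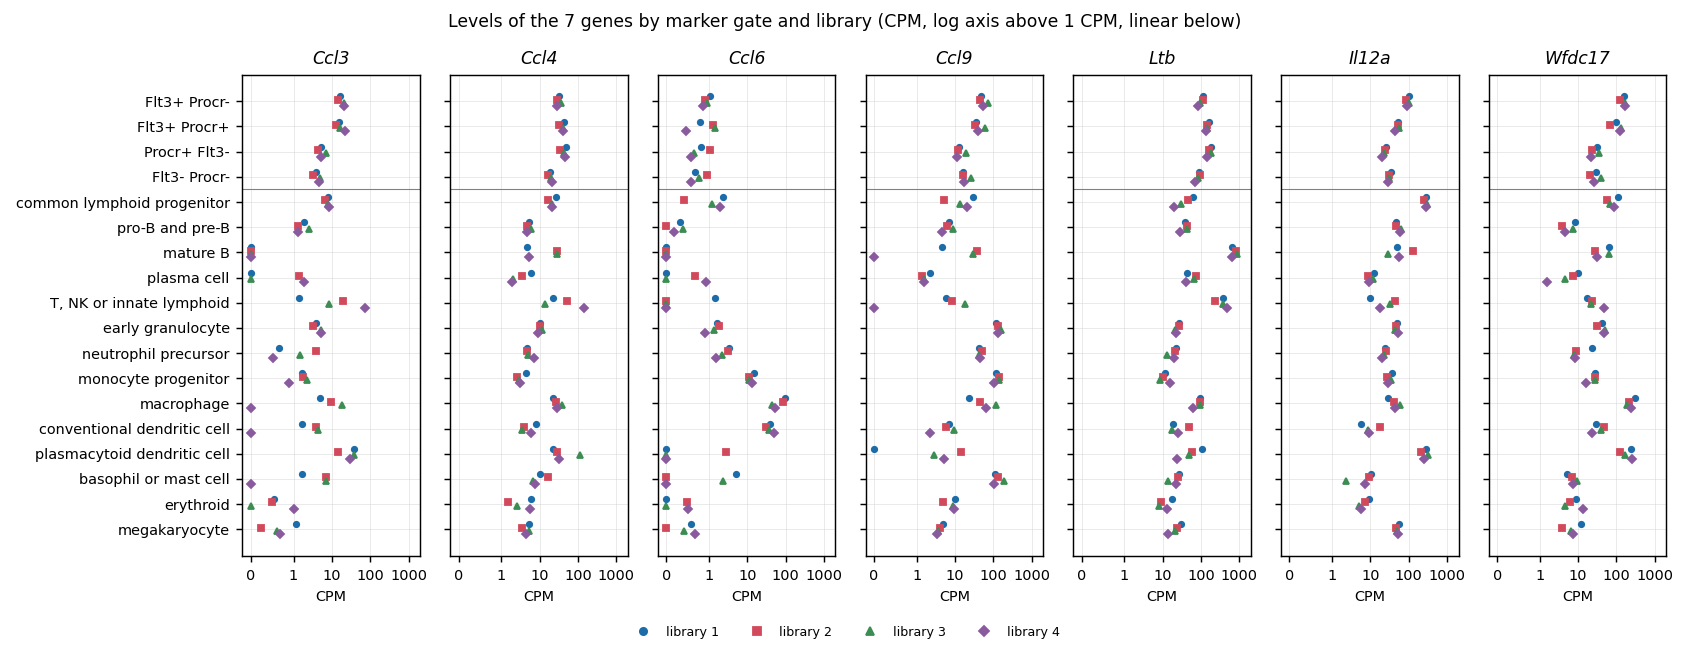
Level of each of the 7 genes (CPM, linear below 1 and logarithmic above) in 18 marker gates, 1 symbol per library; the line divides the 4 progenitor sets from the lineage gates. Ccl3 and Wfdc17 of Flt3-positive cells overlap plasmacytoid dendritic cells, Wfdc17 lies under macrophages, and Ccl4 has its highest median in Procr-positive cells. In every progenitor set Ltb lies under mature B cells (657 to 889 CPM) and T, NK or innate lymphoid cells (229 to 481 CPM). Il12a lies there under common lymphoid progenitors (245 to 303 CPM) and plasmacytoid dendritic cells (215 to 328 CPM). Ccl6 lies near 1 CPM in the progenitor sets and at 44.2 to 93.8 CPM in macrophages.

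Ltb encodes lymphotoxin beta, a membrane protein that joins lymphotoxin alpha to form the ligand of the lymphotoxin beta receptor. Mature B cells had 657, 810.4, 889 and 663 CPM in libraries 1 to 4 and T, NK or innate lymphoid cells 229 to 481 CPM. Procr-positive cells came next in the order, above every myeloid gate. Flt3-positive cells had 110, 112, 94.97 and 83.9 CPM, against 183, 166, 177 and 148 CPM in Procr-positive cells. The groups did not overlap, and the level was at least 1.5-fold lower in Flt3-positive cells in 3 of 4 libraries, library 2 being the exception (median log2 ratio -0.77, range -0.89 to -0.56). The lowest levels of Ltb were those of monocyte progenitors (8.35 to 15.4 CPM) and erythroid cells (7.80 to 17.0 CPM).

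Il12a encodes the alpha subunit of IL-12, which pairs with Il12b, and of IL-35, which pairs with Ebi3. Common lymphoid progenitors had 283, 245, 303 and 285 CPM in libraries 1 to 4 and plasmacytoid dendritic cells 281, 215, 328 and 245 CPM. Those gates overlapped each other, and every value of either was above every value of the next gate. Flt3-positive cells had 99.3, 87.4, 102 and 89.7 CPM, against 26.3, 24.6, 22.9 and 19.9 CPM in Procr-positive cells. The groups did not overlap, and the median log2 ratio was 1.99 (1.79 to 2.12 over the libraries). Conventional dendritic cells, a textbook source of IL-12, had 8.82 CPM, close to the 6.45 CPM of erythroid cells. Megakaryocytes had 50.3 CPM (range 46.1 to 56.8) and early granulocytes 48.3 CPM (range 44.9 to 51.8), both above Procr-positive cells in every library.

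Wfdc17 encodes a small secreted protein with a WAP domain that is known from activated macrophages. Macrophages had the highest median, with 301, 219, 186 and 234 CPM in libraries 1 to 4, and plasmacytoid dendritic cells had 236, 125, 167 and 263 CPM. Flt3-positive cells had 154, 127, 169 and 172 CPM, against 31.7, 23.4, 35.5 and 22.2 CPM in Procr-positive cells. The groups did not overlap, and the median log2 ratio of 2.32 (range 2.22 to 2.90) was the largest of the 7 genes. Of 29752 Wfdc17 UMIs, 49.6% came from Flt3-positive cells, which were 8728 of the 41122 kept cells. The counts were uneven between cells. At 5000 UMIs per cell, 974 of 8461 Flt3-positive cells had at least 3 Wfdc17 UMIs, these cells held 71.7% of the UMIs, and the highest cell had 52. For Il12a in the same cells the share of UMIs in cells with at least 3 was 31.5%.

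Across all genes, 9944 averaged at least 5 CPM over both sets of cells. Of these, 3.49% were at least 1.5-fold higher in Flt3-positive than in Procr-positive cells in all 4 libraries and 5.06% at least 1.5-fold lower. Of the 7 genes 6 reached that level, 4 were higher (Ccl3, Ccl9, Il12a and Wfdc17) and none was lower. The genes were chosen with this contrast in view, so that nothing is read from these counts. In the order of median levels over the 18 gates, the library ranges of neighbours were apart in 3 of 17 pairs for Ccl9, Ltb and Il12a, in 2 for Ccl6, in 1 for Ccl4 and in none for Ccl3 and Wfdc17. Most neighbouring gates therefore did not differ beyond the spread of the libraries.

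The share of cells with at least 1 UMI depends on depth, and Flt3-positive cells were deeper than Procr-positive cells (medians of 9881.5 and 7987 UMIs). Each cell was therefore thinned to 5000 UMIs, which left out 267 Flt3-positive cells, 328 Procr-positive cells and 4 erythroid cells. Wfdc17 was then found in 33.2% of Flt3-positive cells (range 29.0 to 35.0), against 8.55% of Procr-positive cells (6.78 to 11.5). Il12a was found in 32.1% of Flt3-positive cells, against 10.9% of Procr-positive cells, and Ccl9 in 19.5% against 5.03%. Ccl3 was found in 8.75% of Flt3-positive cells, against 2.48% of Procr-positive cells. Without thinning these shares were 44.8% against 12.1% for Wfdc17, 47.9% against 17.8% for Il12a, 30.1% against 8.05% for Ccl9 and 13.7% against 3.58% for Ccl3. For Ltb the thinned share was 35.5% in Flt3-positive cells, against 49.5% in Procr-positive cells, and for Ccl4 14.7% against 18.7%. The shares of Ltb as deposited were 51.2% in Flt3-positive cells, against 62.9% in Procr-positive cells, and those of Ccl4 24.1% against 26.9%. Thinning lowered each of these shares and left the order of the Flt3-positive and Procr-positive medians as it was. For Ccl4 as deposited the library ranges overlapped (23.0% to 26.4% in Flt3-positive cells, against 22.8% to 28.3%).

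Droplets also hold free RNA, and erythroid cells were taken as a rough guide to it, which was not tested. At 5000 UMIs the erythroid medians were 0% for Ccl3, 2.24% for Ccl4, 4.53% for Ccl9, 6.02% for Ltb, 2.07% for Il12a and 2.86% for Wfdc17 (375 cells, median of 18557 UMIs before thinning). The Procr-positive share of Ccl9, 5.03%, was close to the erythroid share, but megakaryocytes had only 1.83% (range 1.56 to 2.31). Erythroid cells were thus not the lowest gate for Ccl9, and its Procr-positive share is not read as expression or as free RNA. Ccl6 was found in 0.607% of Flt3-positive cells, against 0.421% of Procr-positive cells, and in none of the 375 erythroid cells. A count of 0 among the 79 to 110 erythroid cells of a library allows a share of up to 2.73% to 3.80%, so that the Ccl6 shares in progenitors are not told apart from it.

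**Figure D2:**
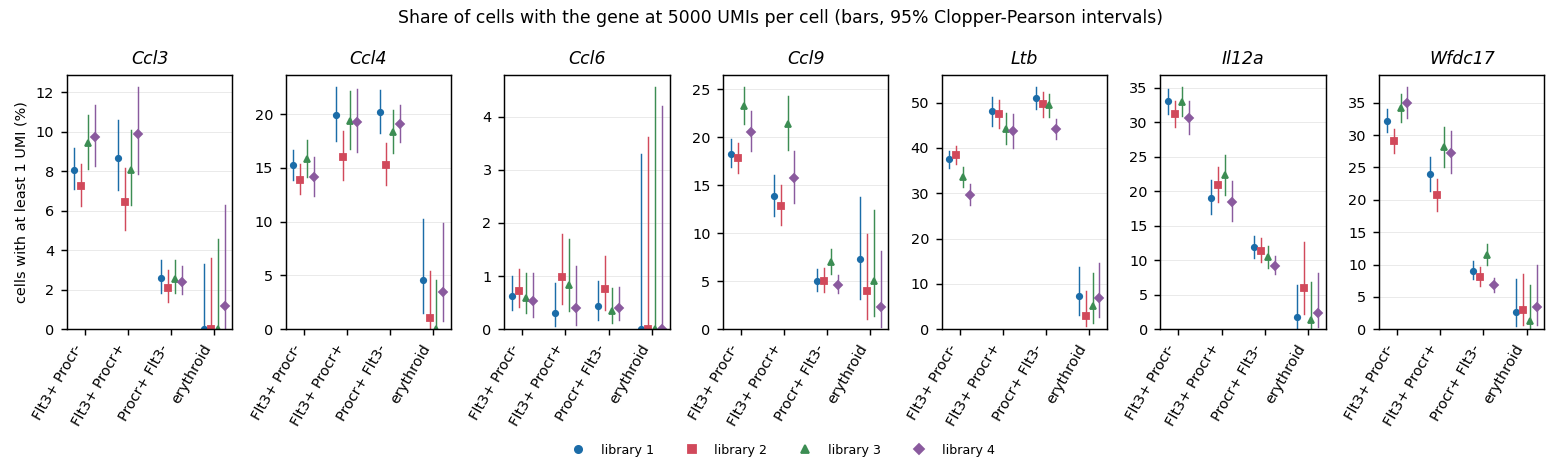
Share of cells (%) with at least 1 UMI of each gene after thinning to 5000 UMIs per cell, in Flt3-positive, double-positive, Procr-positive and erythroid cells, 1 symbol per library with its exact 95% Clopper-Pearson interval. Ccl3, Ccl9, Il12a and Wfdc17 are higher in Flt3-positive cells in all 4 libraries, Ltb and Ccl4 are lower, and Ccl6 stays under 1% in each of the progenitor sets.

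A finer series of gates showed where along the stem to lymphoid order each gene was highest. Procr-positive cells were divided by Vwf, a gene of platelet-biased stem cells, and Flt3-positive cells by Dntt, the enzyme that adds bases at antigen receptor joints. Il12a had medians of 16.5 CPM in Procr-positive Vwf+ cells, 25.7 CPM in Procr-positive Vwf- cells, 52.0 CPM in double-positive cells, 36.6 CPM in Flt3-positive Dntt- cells, 146 CPM in Flt3-positive Dntt+ cells, 284 CPM in common lymphoid progenitors, 54.6 CPM in pro-B and pre-B cells and 53.8 CPM in mature B cells. The values of Dntt- cells (35.0 to 37.2) and Dntt+ cells (133 to 163) did not overlap, nor did those of common lymphoid progenitors (245 to 303) with either neighbour.

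Wfdc17 and Ccl3 reached their highest values 1 step earlier in this order. Wfdc17 had medians of 8.45, 32.7, 113, 81.3, 224, 77.9, 5.97 and 47.1 CPM over the same 8 gates, and Ccl3 had 0.983, 6.87, 16.1, 11.1, 24.0, 7.95, 1.62 and 0 CPM. In Dntt+ cells Wfdc17 ranged from 176 to 259 CPM and in common lymphoid progenitors from 55.6 to 112 CPM, without overlap. Ccl9 had 4.05, 14.5, 37.4, 37.9, 61.4, 17.1, 6.70 and 16.9 CPM. Ccl9, Wfdc17 and Ccl3 were thus each lowest in the Vwf+ cells among the 5 progenitor sets, where Ccl3 rested on as few as 1 UMI per library.

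By median, Ltb and Ccl4 were instead higher in both Procr-positive sets than in both Flt3-positive sets. Ltb had medians of 164, 169, 146, 109, 96.9, 38.3 and 40.1 CPM in the first 7 gates and 737 CPM in mature B cells. Ccl4 had 35.7, 49.6, 41.5, 29.1, 33.3, 21.1, 4.98 and 16.6 CPM over the 8 gates. The Ccl4 median rose from Vwf+ to Vwf- cells and from Dntt- to Dntt+ cells, as for Ccl3, Ccl9 and Wfdc17, but with overlapping library ranges. In pro-B and pre-B cells Ccl4 (4.58 to 5.87 CPM) stood at the level of erythroid cells (1.46 to 5.86 CPM), whereas Ltb (29.1 to 44.5 CPM) stayed above theirs (7.80 to 17.0 CPM). Mature B cells numbered 23 to 50 per library, and Ccl4 there rested on 11 UMIs in all.

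**Figure D3:**
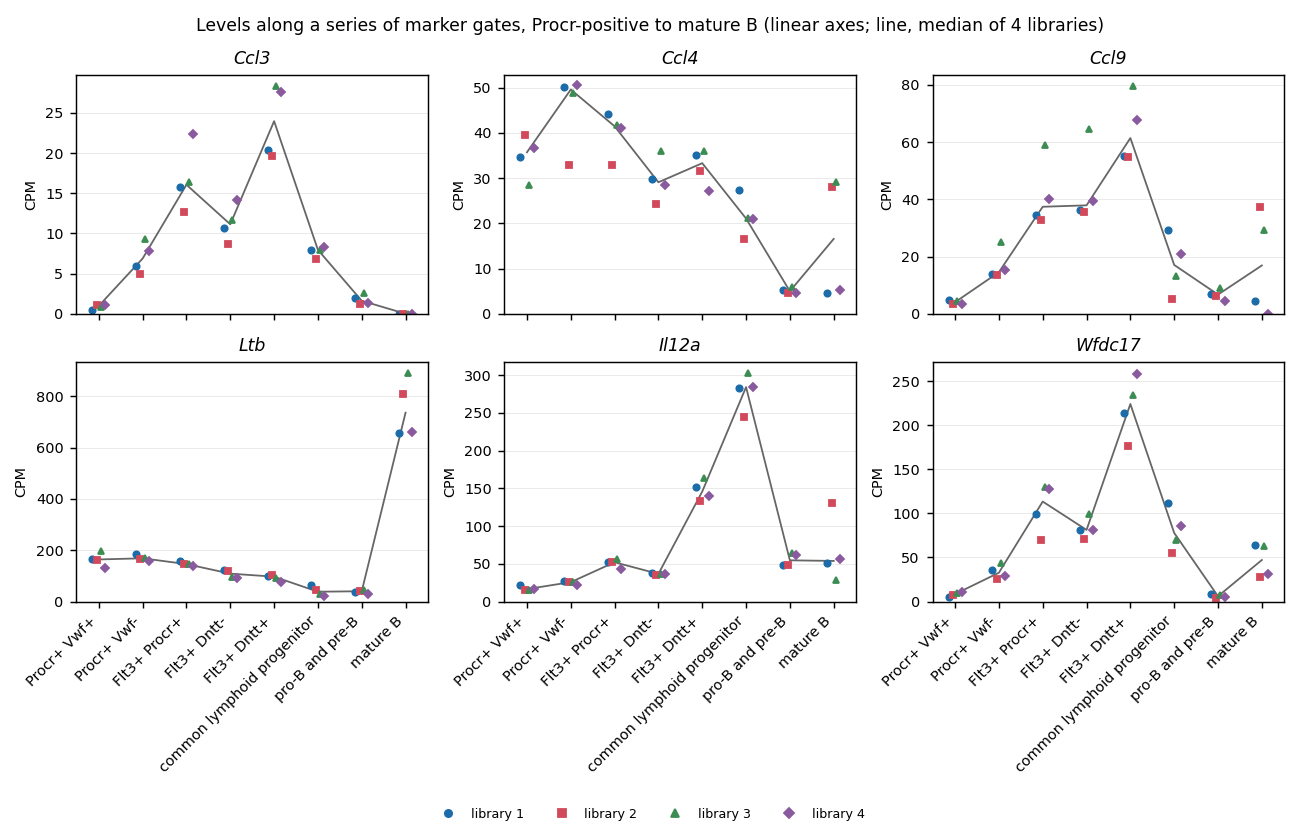
Level (CPM, linear axes starting at 0) of 6 of the genes along 8 marker gates from Procr-positive Vwf+ cells to mature B cells, 1 symbol per library and a line through the medians. Il12a is highest in common lymphoid progenitors (245 to 303 CPM), Wfdc17, Ccl3 and Ccl9 in Flt3-positive Dntt+ cells, and Ltb in mature B cells.

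Cells in cycle carried less of most of these genes in the Flt3-positive set. Cells were called cycling when they held at least 3 UMIs of 16 cell cycle genes at 5000 UMIs, which took 57.2% to 67.2% of Flt3-positive cells and 21.2% to 40.5% of Procr-positive cells. Between 17.8% and 21.5% of the cells of a set held 2 or 3 of these UMIs, so that many lay near the limit. In Flt3-positive cells Wfdc17 had 109, 94.2, 106 and 121 CPM in cycling cells of libraries 1 to 4, against 323, 288, 363 and 354 CPM in cells not cycling. Ccl3 had 12.3, 9.12, 12.8 and 13.3 CPM in cycling cells, against 31.6, 37.4, 42.2 and 43.9 CPM in cells not cycling. Ltb had 87.2, 95.1, 72.9 and 61.8 CPM in cycling cells, against 218, 222, 172 and 161 CPM in cells not cycling. For 6 of the 7 genes, all but Ccl6, the cycling value was lower in all 4 libraries, and the same held for 32.8% of the 9780 genes that averaged 5 CPM, whose median ratio was 0.97. The median ratio of cycling to not cycling was 0.30 for Ccl3, 0.33 for Wfdc17, 0.40 for Ccl4, 0.41 for Ltb, and 0.72 for both Ccl9 and Il12a.

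In Procr-positive cells the ratio was below 1 in all 4 libraries for 3 genes, with medians of 0.47 for Ccl4, 0.51 for Ltb and 0.58 for Wfdc17, while 23.9% of all genes tested were below 1 in all 4 libraries. For Ccl9 the ratio was above 1 in all 4 libraries (median 1.53, range 1.07 to 1.61). Its level in this set (10.98 to 19.9 CPM) lay above that of erythroid cells (4.86 to 10.1 CPM) and of megakaryocytes in every library. Its thinned share was close to the erythroid share, however, and no cycling difference is read from it. Il12a (median ratio 1.03) and Ccl3 (0.80) lay on both sides of 1. Flt3-positive cells held more cell cycle UMIs than Procr-positive cells, with 12 of 16 cell cycle genes at least 1.5-fold higher and none lower, against 3.49% and 5.06% of all genes. Mki67, a gene of dividing cells, had a median of 376 CPM in Flt3-positive cells, against 156 CPM in Procr-positive cells. Comparing only the cells not cycling, a choice made after the data were seen, widened some differences between the sets and narrowed others. For Ccl3 the median log2 ratio became 2.42, for Ccl9 also 2.42, for Il12a 2.27 and for Wfdc17 3.12, each still at least 1.5-fold higher in all 4 libraries. For Ltb it became -0.22 (range -0.46 to -0.00034) and for Ccl4 0.01 (range -0.17 to 0.30). At 5000 UMIs, Ltb of cells not cycling stood at 218, 222, 172 and 161 CPM in Flt3-positive cells, against 251, 234, 233 and 181 CPM in Procr-positive cells, and these ranges overlapped. For Ltb and Ccl4 the difference between the sets was smaller than the difference between cycling and not cycling cells of the same set.

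**Figure D4:**
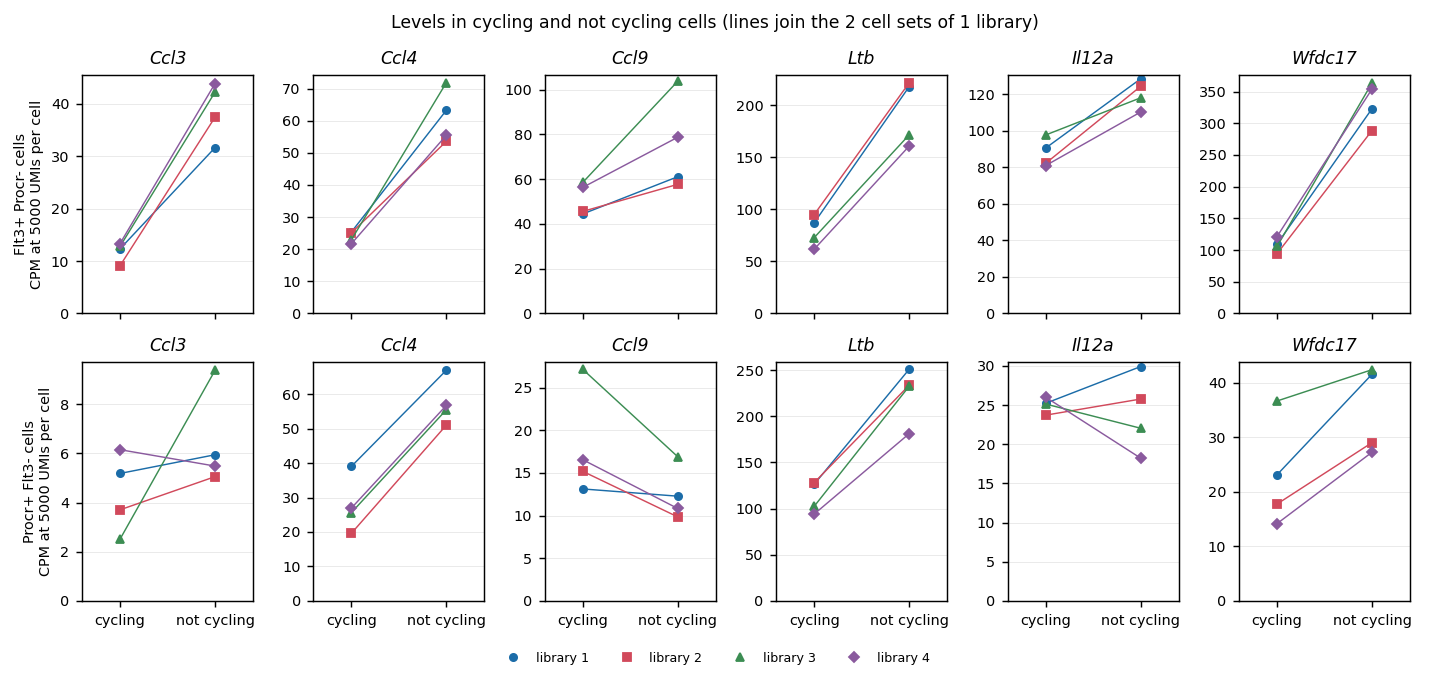
Level (CPM at 5000 UMIs per cell, linear axes starting at 0) of 6 of the genes in cycling and not cycling cells of the Flt3-positive set (upper row) and the Procr-positive set (lower row); a line joins the 2 values of a library. All lines rise toward cells not cycling in the upper row, and those of Ccl4, Ltb and Wfdc17 do in the lower row.

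Several of the genes were found in the same cells more often than the product of their shares gives. In Flt3-positive cells at 5000 UMIs, Ccl3 and Wfdc17 were found together in 132, 105, 106 and 93 cells of libraries 1 to 4, against 71.2, 50.2, 59.8 and 50.7 cells from the product (median ratio 1.84). Of Ccl3-positive cells 59.7% to 64.1% held Wfdc17, against 26.5% to 31.8% of Ccl3-negative cells. Ccl3 and Ccl4 were found together in 48, 43, 54 and 42 cells, against 33.7, 24.1, 27.7 and 20.5 cells from the product (median ratio 1.87). Ratios were 1.49 for Ccl4 and Wfdc17, 1.43 for Il12a and Wfdc17 and 1.41 for Ccl9 and Wfdc17. Ccl9 and Ltb (0.98, range 0.94 to 1.10) and Ltb and Il12a (1.04, range 0.96 to 1.06) lay near 1. How other pairs of genes at like levels behave in these cells was not tested. Thinning makes the cells equal in depth, but cells of 1 set still differ in stage and cycle, whose part in these ratios was not tested.

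In Procr-positive cells the pairs rested on fewer cells. Ccl3 and Wfdc17 were found together in 42 cells over the 4 libraries, against 13.6 from the product (median ratio 3.19, range 1.33 to 3.89). Ccl4 and Ltb were found together in 664 cells, against 568 (median ratio 1.17, range 1.15 to 1.20).

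**Figure D5:**
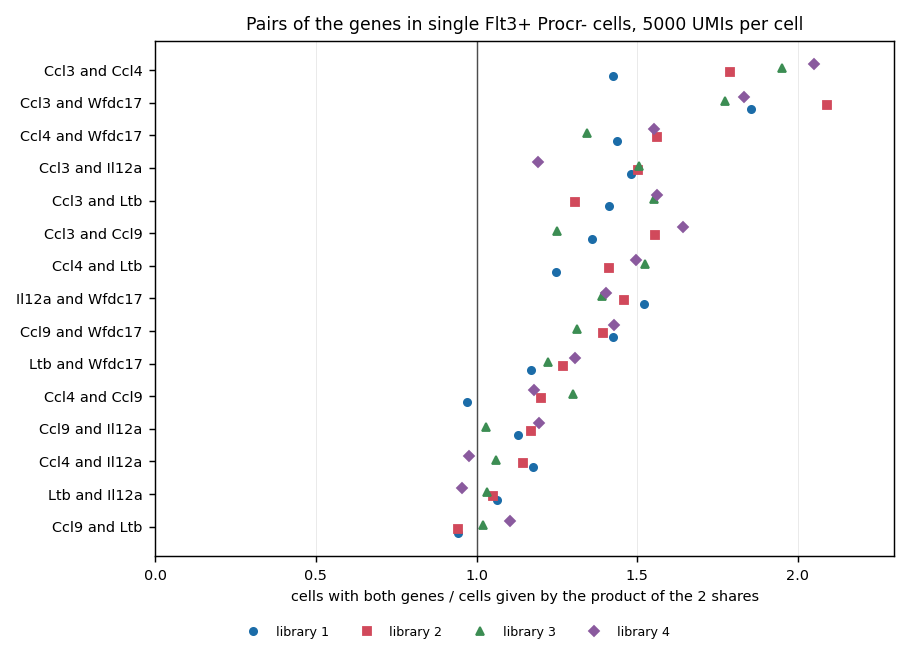
Cells with both genes over the number given by the product of their shares, for 15 pairs in Flt3-positive cells at 5000 UMIs per cell, 1 symbol per library; the line at 1 is the product. Ccl3 with Ccl4 and Ccl3 with Wfdc17 lie farthest to the right, and Ccl9 with Ltb at 0.94 to 1.10.

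The cells that carried each gene were then set against cells of the same set that did not, over all genes, at 5000 UMIs per cell and with the same rule of size. Ccl3 in Procr-positive cells and Ccl6 were left out, since a library held under 50 positive cells. Genes named from these contrasts were picked after their values were seen. In Flt3-positive cells Wfdc17-positive cells had 45.5 CPM of Wfdc18, against 6.02 CPM in Wfdc17-negative cells, the gene that led the ranking by the smallest change in any library (log2 ratio 2.69, range 2.63 to 2.81). It is the neighbour that starts 2746 bases past Wfdc17. In Procr-positive cells the same pair of genes went together (20.4 CPM in Wfdc17-positive cells, against 1.48 CPM in Wfdc17-negative cells, log2 ratio 3.06). Ccr9, a chemokine receptor and a marker of the plasmacytoid dendritic cell gate, had 44.2 CPM in Wfdc17-positive cells, against 4.95 CPM in Wfdc17-negative cells. Of all genes 0.911% were called higher and 2.18% lower in Wfdc17-positive Flt3-positive cells, and 0.369% higher and 0.628% lower in Wfdc17-positive Procr-positive cells.

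Ccr9 was also higher in Flt3-positive cells with Ccl3 (54.3 CPM, against 14.3 CPM without), with Ccl4 (40.9 against 13.3 CPM), with Ltb (34.1 against 9.12 CPM) and with Il12a (43.7 against 5.91 CPM). Il12a-positive cells had 772 CPM of Dntt, against 208 CPM in Il12a-negative cells (log2 ratio 1.93), and 46.1 CPM of Cox6a2, against 7.41 CPM. Of all genes tested in Flt3-positive cells, 0.531% were called higher with Ccl3, 0.133% with Ccl4, 0.327% with Ltb, 0.872% with Il12a and 0.0411% with Ccl9. Ccl9-positive cells stood apart, with more of the granule protease gene Ctsg (82.8 CPM, against 38.3 CPM without), of Cebpa, a regulator of myeloid fate (22.7 against 14.1 CPM), and of the myeloid adaptor Tyrobp (143 against 87.6 CPM). The genes that went with Ccl9 in Procr-positive cells are not described, since its share there (5.03%) was close to the 4.53% of erythroid cells. Ltb-positive cells had more Relb, a subunit of NF-kB, in Flt3-positive cells (12.5 CPM, against 4.44 CPM in Ltb-negative cells) and in Procr-positive cells (12.6 against 5.62 CPM). In Procr-positive cells 0.44% of all genes were called higher with Ccl9, 0.0597% with Ltb, 0.0398% with Il12a and 0.0199% with Ccl4.

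Of 16 cell cycle genes, 12 were called lower in Ccl3-positive than in Ccl3-negative Flt3-positive cells, 11 with Wfdc17, 10 with Ltb, 8 with Ccl4, 2 with Ccl9 and none with Il12a, against 2.02%, 2.18%, 1.82%, 0.92%, 0.38% and 0.544% of all genes. In Procr-positive cells the count was 12 with Ltb, 10 with Ccl4, 5 with Wfdc17 and none with Il12a, against 1.12%, 0.527%, 0.628% and 0.0697% of all genes. With Ccl9, whose share there was close to that of erythroid cells, it was 1, against 0.86% of all genes. None was called higher in any of these contrasts. Of 13 genes of the NF-kB list with enough reads, 1 (Relb) was called higher with Ltb in both sets. Of all genes, 0.327% were called higher with Ltb in Flt3-positive cells and 0.0597% in Procr-positive cells. None of the list was called with Ccl3, Ccl4, Ccl9, Il12a or Wfdc17. No immediate early gene of the 9 with enough reads, such as Fos and Jun, which are raised when cells are stressed during isolation, was called in any of these contrasts. Their median log2 ratio was 0.44 with Ccl4, 0.43 with Ltb, 0.37 with Ccl3 and 0.35 with Wfdc17 in Flt3-positive cells, beside 0.01, 0.02, -0.03 and -0.04 over all genes. The part of isolation in these levels was not tested.

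The chemokine receptors Ccr1 and Ccr3 were read elsewhere. Ccr1, a receptor of Ccl3, Ccl6 and Ccl9, had its highest median in basophils or mast cells (35.0 CPM) and Ccr3, a receptor of eosinophils and basophils, in macrophages (133 CPM). Both had a median under 0.5 CPM in Flt3-positive and in Procr-positive cells. The receptor of lymphotoxin, Ltbr, was read throughout the progenitors, with 16.8 CPM in Flt3-positive cells (range 16.3 to 19.4), against 20.2 CPM in Procr-positive cells (range 18.7 to 21.6). Its partner gene Lta had its highest median, 3.08 CPM, in T, NK or innate lymphoid cells. Il12b, the IL-12 partner of Il12a, had a median of 0 CPM in all 18 gates. Flt3-positive cells held 21 UMIs of it and conventional dendritic cells 22 UMIs, all of them from library 1. Ebi3, the IL-35 partner of Il12a, had 10.9 CPM in Flt3-positive cells (range 8.26 to 13.3), against 16.04 CPM in Procr-positive cells (range 12.8 to 19.0). Ccr2 reached 650 CPM in conventional dendritic cells and Il6st, a receptor subunit that IL-35 shares with IL-6, 52.8 CPM in common lymphoid progenitors. Of the 16 partners and receptors 11 reached 10 CPM in some gate. For the rule of size between these sets 5 had enough reads, and none was called, against 3.49% higher and 5.06% lower of all genes.

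Of the 24 other chemokines that were matched, 10 reached 10 CPM in some gate, and the highest were Pf4 in megakaryocytes (4404 CPM), Ccl5 in T, NK or innate lymphoid cells (1251 CPM), Cxcl9 in conventional dendritic cells (313 CPM), Xcl1 in T, NK or innate lymphoid cells (308 CPM) and Cxcl16 in conventional dendritic cells (68.3 CPM). Only 3 had enough reads in progenitors, and none was called higher or lower in Flt3-positive than in Procr-positive cells. Of 25 other cytokines 12 reached 10 CPM in some gate, led by Mif (1094 CPM in pro-B and pre-B cells), Tgfb1 (296 CPM in megakaryocytes) and Il16 (115 CPM in mature B cells). In progenitors 9 had enough reads, none was higher and 3 were lower, against 3.49% higher and 5.06% lower of all genes tested. Il4, a cytokine of type 2 immunity, had 1.45 CPM in Flt3-positive cells, against 9.44 CPM in Procr-positive cells (log2 ratio -2.07). Tnfsf13, which encodes the B cell survival factor APRIL, had 14.3 against 26.7 CPM, and Flt3l, the ligand of Flt3, had 6.97 against 11.9 CPM. Of 7 WAP domain genes 4 reached 10 CPM in some gate, among them Slpi in plasma cells (1668 CPM) and Wfdc21 in neutrophil precursors (430 CPM), and 3 had enough reads in progenitors. Wfdc18 was called higher (15.3 CPM in Flt3-positive cells, against 2.72 CPM in Procr-positive cells) and Wfdc2 lower (2.68 against 11.7 CPM). Tnfaip2 was the only one of 13 NF-kB genes called, at 12.5 CPM in Flt3-positive cells, against 28.1 CPM in Procr-positive cells, and Egr1 the only one of 9 immediate early genes, at 6.67 against 19.9 CPM. Both were lower in Flt3-positive cells. The same shares of all genes, 3.49% higher and 5.06% lower, stand beside the counts of each list. The lists are short, and no result about a list is read from its count.

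Among 8455 genes at 20 CPM or more in at least 1 gate, the genes most like each of the 7 over the 18 gates were found by the lowest of the 4 within-library correlations of log2(CPM + 1). They are given as a description, since gates of a library share its depth and cells. Sema3d (lowest r 0.72), Sstr2 (0.71) and Wfdc18 (0.69) were most like Ccl3, all with plasmacytoid dendritic cells as their highest gate. Pnrc1 (0.82), Zfp945 (0.81) and Gm19590 (0.80) were most like Ccl4, all highest in Procr-positive cells. For Ccl6 they were Cd300c2 (0.89), Ear2 (0.86) and Treml4 (0.85), and for Ccl9 Bace1 (0.75), Prtn3 (0.72) and Plppr3 (0.70). Cbx7 (0.84), Shisa5 (0.83) and Gimap8 (0.82) were most like Ltb. Dusp2 (0.81), Sh2d5 (0.79) and Mn1 (0.79) were most like Il12a, and Slc43a2 (0.76), Runx2 (0.75) and mt-Co1 (0.73) most like Wfdc17. Between the 7 genes themselves, Ccl3 and Ccl4 had 0.68 to 0.77 over the libraries, Ccl4 and Wfdc17 0.58 to 0.83 and Il12a and Wfdc17 0.55 to 0.64, whereas the neighbours Ccl6 and Ccl9 had 0.23 to 0.43.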

How the data were processed

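RNA was counted in single donor HSPCs of 4 samples with the 10x Genomics 3' v3.1 kit, per the labels. The authors deposited whole-number UMI counts for all cells in 1 aggregated matrix, which Cell Ranger 6.1.2 wrote, as the file headers record, on mm10, per the submitters' processing notes. Whether libraries were thinned to equal depth at aggregation is not given in the sources used here.

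From the deposited counts, cells were kept that had 500 genes or more and no more than 10% of UMIs from mitochondrial genes. A cell entered a lineage gate with at least 2 UMIs of each of 2 markers (3 markers for early granulocytes and for basophils or mast cells). Where gates follow each other in 1 lineage the more mature one kept the cell. No doublet caller was run, and 433 cells with gates of more than 1 lineage were left out, as was a single cell in the eosinophil gate. UMIs were summed per gate and library and scaled to 1000000. A gene was called when the ratio, with 1 CPM added, reached 1.5-fold, one way, in each of the 4 libraries; the gene had to average 5 CPM. Cells were thinned to 5000 UMIs (seed 1), leaving out 2004 cells. NumPy 2.4.6, SciPy 1.17.1, pandas 2.3.3, Biopython 1.88 and edgeR 4.0.16 (TMM factors only) were used. The rule of size was checked on simulated counts.

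The 7 genes, the gene lists and the markers were chosen with earlier results of these data known. The number of markers needed, the splits by Vwf and Dntt and the contrasts of positive with negative cells were set after the files were examined. Genes named by rule were the 7, list genes at 10 CPM or more in a gate, and the 3 genes most like each. Intervals cover counting error only. Ccl27a and Expi of the lists had no row of that name. Genes called within a list were named besides. Samples of mutant and WT donors were not compared, because library suffixes are not tied to samples. Alternatives were other scalings, filters, marker numbers, pseudocount and UMI limits, and leaving out each library.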

Additional observations from a re-analysis of the deposited data

How the results depend on the processing

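Between Flt3-positive and Procr-positive cells, Ccl3, Ccl9, Il12a and Wfdc17 stayed at least 1.5-fold higher in every library used, under every alternative run. For the 7 genes the alternatives were judged by these ratios alone, without the minimum level of a call. Ccl3, with medians of 18.1 CPM in Flt3-positive and 5.24 CPM in Procr-positive cells, lay under the filter at 20 CPM and would not be called there. With TMM or median-of-ratios scaling, a pseudocount of 5 CPM, without the top 8% of cells by UMIs, at a mitochondrial limit of 5%, without barcodes found in more than 1 library or in cells not cycling alone (the last 2 chosen after seeing the data), no call of the 7 genes changed, but in cells not cycling the median log2 ratio of Ltb shrank to -0.22 and that of Ccl4 to 0.01. Over all results and alternatives, 214 values were counted as unchanged, 20 moved, 6 passed the threshold newly and none of the called values changed sign. A gene counted as unchanged when its call stayed the same, even if an uncalled ratio changed sign, as for Ccl4 in cells not cycling. A level, share or ratio of cells with both genes did so when its median stayed within the main range over libraries. For numbers of called genes the limit was the fold used for a call.

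Ltb passed the threshold as lower at -0.97 with at least 2 UMIs of Flt3 or Procr, at -1.19 with lineage cells kept, at -1.01 with 1 marker more for a lineage gate and at -0.81 without library 2, with a range of -0.81 to -0.73 when each library was left out in turn. With lineage cells kept, Ccl4 passed at -0.77 and Ccl6 at 1.01 (log2 ratios). For Ccl6 this is not a call, since its level was not held to the minimum of 5 CPM there. The background moved to 917 genes lower without a filter on low genes, and to 196 higher and 181 lower with a filter at 20 CPM. The difference in the share of positive cells, Flt3-positive minus Procr-positive, moved with thinning to 6.18 percentage points for Ccl3, 14.6 for Ccl9, -14.0 for Ltb, 21.3 for Il12a and 22.9 for Wfdc17. With at least 2 UMIs of Flt3 or Procr it was 13.3 for Ccl3, 0.502 for Ccl6, 28.1 for Ccl9, -15.2 for Ltb, 43.4 for Il12a and 41.8 for Wfdc17. At a mitochondrial limit of 5%, Ltb in mature B cells stood at 599 CPM and Wfdc17 in macrophages at 162 CPM, under plasmacytoid dendritic cells. Without thinning, the ratio of cells with both genes was 1.53 for Ccl3 and Wfdc17, 1.26 for Ccl4 and Wfdc17, 1.29 for Il12a and Wfdc17 and 1.28 for Ccl9 and Wfdc17. The causes of these moves were not tested.

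With 1 marker more, the plasmacytoid dendritic cell gate fell to 16 cells and gave no value, and the highest gate became T, NK or innate lymphoid cells for Ccl3 and Ccl4. The highest gate for Ccl9 became basophils or mast cells with 1 marker more and without the top 8% of cells. Ratios between cell sets were taken within each library. Between mutant and WT donors, no paired analysis was possible because the barcode suffixes carry no sample, genotype or replicate number. Depth limits Ccl6 in progenitors, and small gates (plasmacytoid dendritic cells, mature B cells, basophils or mast cells) rest on few cells per library.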
